A study of Homo sapiens with 12 samples.

Results

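The heat shock chaperones described here were 10 genes taken by symbol from a table of 17085 genes measured by RNA sequencing in 786-O cells, a human renal carcinoma cell line. They were the cytosolic HSP90 genes HSP90AA1 and HSP90AB1, the cytosolic HSP70 genes HSPA8, HSPA1A and HSPA1B, the HSP70 helpers DNAJB1, HSPH1 and BAG3, and the mitochondrial pair HSPD1 and HSPE1. The list was drawn up with the group values of these genes already in view, so their levels and differences between groups are given as descriptions, with no p-value, and a count of members past a threshold carries no evidence of its own. Wild-type 786-O cells were exposed for 24 h to the vehicle DMSO, to 5 µM everolimus (which inhibits the kinase complex mTORC1), to 1.5 µM SGI-1027 (a compound made to block DNA methyltransferases) or to 5 µM everolimus with 1.5 µM SGI-1027, here called the combination, with 3 libraries in each of the 4 groups. For everolimus alone the sample records give 5 µM in the treatment label and 10 µM in the treatment protocol, so it is uncertain whether its dose matched the dose in the combination. All libraries came from the same cell line, and the records do not say whether the replicates were separate cultures. Every error below therefore measures a spread between libraries that may be partly technical. An SD is over the 3 libraries of a group, whereas an SE comes from a fit on all 12 libraries. A library that stands apart can thus widen the SE of contrasts it is not in.

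Heat shock proteins are molecular chaperones that bind unfolded proteins and use cycles of ATP binding and hydrolysis to help them fold, refold or be handed to degradation. HSP70 proteins take up nascent and misfolded chains with the aid of J-domain proteins such as DNAJB1 and are reset by nucleotide exchange factors such as HSPH1 and BAG3, HSP90 acts later on kinases, steroid receptors and other client proteins, and HSPD1 and HSPE1 form a folding chamber in the mitochondrial matrix. Many of these genes are targets of HSF1, the transcription factor of the heat shock response, which binds heat shock elements, arrays of the 5-base unit nGAAn in alternating orientation. Tumour cells commonly carry high levels of these chaperones without heat stress.

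Heat shock elements were looked for in the RefSeq promoter windows of the 10 genes (GRCh38.p14, 250 bases before to 50 bases after each start site, 16 windows in all). The 2-unit repeat GAANNTTC, which reads the same on both strands, occurred in windows of 7 of the 10 genes, against 8.21% of the 27305 genes with a window. The 3-unit repeat (TTCNNGAANNTTC or GAANNTTCNNGAA, which are reverse complements of each other, so that both strands were covered) occurred in HSP90AA1, HSP90AB1, HSPA8 and HSPD1, that is in 4 of the 10 genes, against 0.608% of all genes. The 3-unit repeat contains the 2-unit repeat. The 10 genes were listed as HSF1-regulated chaperones, so their excess over all genes follows from that choice and carries no evidence of its own. They also had more windows per gene, 16 for 10 genes against 35116 for 27305. HSPH1, HSPE1 and BAG3 had neither repeat in these windows. The stretches below are shown because they hold these repeats, with 30 bases for each gene, 5′ to 3′ on the gene's strand, and with every base of a GAANNTTC or TTCNNGAA match in capitals.
HSP90AA1 (chr14:102087104-102087133, minus strand, bases -89 to -60 from the start site): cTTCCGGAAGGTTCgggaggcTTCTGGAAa
HSP90AB1 (chr6:44247823-44247852, plus strand, bases -120 to -91): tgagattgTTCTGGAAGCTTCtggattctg
HSPA8 (chr11:123062170-123062199, minus strand, bases -63 to -34): cgggccccTTCTGGAAGGTTCtaagatagg
HSPD1 (chr2:197500061-197500090, minus strand, bases -250 to -221): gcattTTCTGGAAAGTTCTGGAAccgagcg
DNAJB1 (chr19:14518456-14518485, minus strand, bases -88 to -59): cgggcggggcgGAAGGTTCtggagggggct
HSPA1A (chr6:31815426-31815455, plus strand, bases -117 to -88): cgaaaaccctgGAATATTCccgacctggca
HSPA1B (chr6:31827622-31827651, plus strand, bases -116 to -87): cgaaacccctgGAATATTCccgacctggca
The stretches of HSP90AA1, HSPA8 and HSPD1 overlap an exon in the GENCODE basic annotation, whereas the other 4 overlap none in that set. The overlap was taken over exons of any gene on either strand, and the gene was not recorded. HSP90AB1 and HSPA8 each held a second 3-unit repeat farther upstream, starting at -165 and -230. The 250 bases upstream of HSPA1A and HSPA1B were 94.4% identical (235 identical positions, 14 mismatches and 2 gaps). A match in these letters is a description of the sequence and was not tested for binding.

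The libraries held 37046231 to 41516976 counts each, and the 10 chaperones passed the filter on low counts among 12841 tested genes. Differences between replicate libraries, as a chi-square per gene, were 3.04 to 5.46 for most pairs, but 10.1 and 12.9 for the pairs with DMSO replicate 1 and 16.1 and 16.4 for those with SGI-1027 replicate 3, so these libraries stood apart and results that rest on them are given without them as well. The 8 markers fixed for 786-O (PAX8, EPAS1, KRT8, KRT18, VIM, NNMT, CDH2 and MET) were each expressed in every library, at 26.9 FPKM or more. The 9 measured markers of immune, endothelial and red blood cells summed to 18 to 25 counts in the DMSO libraries, 12 to 24 with everolimus, 15 to 27 with SGI-1027 and 9 to 13 with both drugs, and 8 of the 9 were at 0 in at least one library. In bulk RNA, fewer transcripts in every cell and a change in the mix of cell states cannot be told apart.

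All 10 chaperones were lower in each treated group than in the DMSO group, and for none of them did a treated library reach the lowest DMSO library. Together they took 0.866% to 0.892% of all counts in the DMSO libraries, 0.535% to 0.549% with everolimus, 0.501% to 0.513% with SGI-1027 and 0.491% to 0.497% with both drugs. The share in every treated library was thus well below that in every DMSO library, and the everolimus libraries lay above those of the other treated groups. Of all tested genes, 32.3% were lower without overlap with everolimus, 30.7% with SGI-1027 and 34.7% with both drugs. With a Benjamini-Hochberg adjusted p under 0.05 in edgeR's quasi-likelihood fit, all 10 were called lower in each contrast, against 29.2%, 30.6% and 33.4% of tested genes. In the order everolimus, SGI-1027, combination, the median log2 fold change of the 10 was -0.74, -0.84 and -0.84, whereas the median of all tested genes lay at 0.0013, 0.017 and 0.0074.

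The cut-off of the study for a differentially expressed gene, an unadjusted p under 0.05 together with a log2 fold change of 1 or more in size, was passed by fewer members. HSPA1A and HSPD1 passed it with everolimus, where 0.903% of tested genes did so in the lower direction. HSPE1 joined them with SGI-1027 (background 1.07%), and HSP90AA1 joined these 3 with the combination (background 2.71%). With everolimus HSPD1 lay at -1.01 and HSPE1 at -0.90, on either side of the limit. When DMSO replicate 2 or 3 or any of the everolimus libraries was left out, 1 member passed it with everolimus. The 3 contrasts share the DMSO libraries and are therefore not independent.

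**Figure D1:**
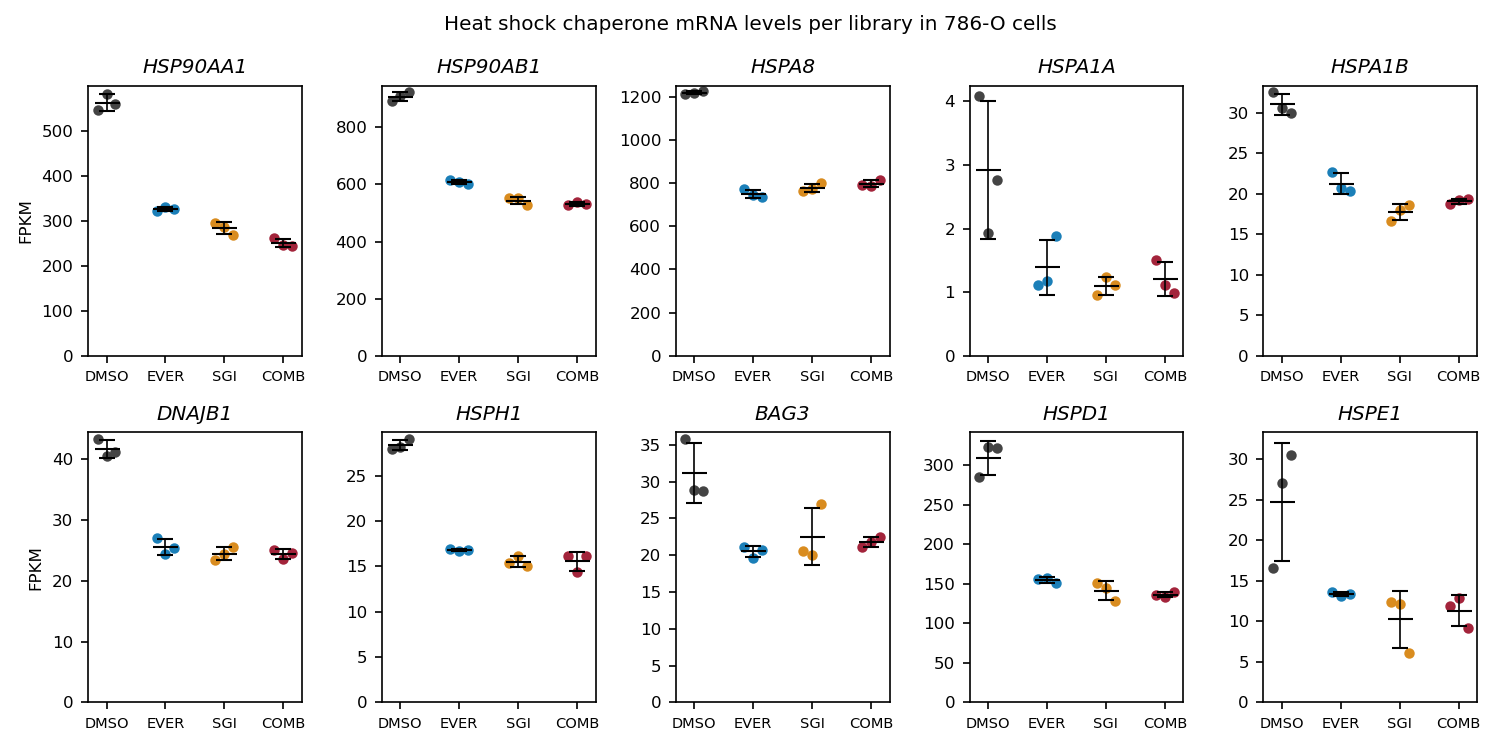
Level of each chaperone in FPKM (fragments scaled to transcript length and library size, y axis from 0, one panel per gene) in the 12 libraries. EVER stands for everolimus, SGI for SGI-1027 and COMB for both drugs. Points are libraries, horizontal bars are means and error bars are SDs of 3 libraries. In every panel the 3 DMSO points lie above all 9 treated points, narrowly so for HSPA1A (1.93 against 1.89 FPKM).

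The chaperones differed widely in level under DMSO. Per length, HSPA8 was the most abundant at 1218 ± 6 FPKM (SD, n = 3) and ranked 33 of 17085 genes, followed by HSP90AB1 at 908 ± 17 FPKM (rank 48), HSP90AA1 at 562 ± 19 FPKM (rank 86) and HSPD1 at 310 ± 22 FPKM (rank 148). The next level was that of DNAJB1, at 41.7 ± 1.5 FPKM. BAG3 (31.1 ± 4.0 FPKM) and HSPA1B (31.0 ± 1.3 FPKM) overlapped each other, as did HSPH1 (28.4 ± 0.6 FPKM) and HSPE1 (24.7 ± 7.3 FPKM). HSPA1A was lowest at 2.92 ± 1.09 FPKM and ranked 8334. The other neighbours in this order had no library in common range.

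HSP90AA1, the stress-inducible cytosolic HSP90, was at 545, 582 and 559 FPKM in the DMSO libraries, 322, 331 and 326 FPKM with everolimus, 295, 286 and 269 FPKM with SGI-1027 and 261, 247 and 243 FPKM with the combination. The groups did not overlap and descended in that order. Against DMSO its log2 fold change was -0.79 ± 0.04 (SE) for everolimus, -0.99 ± 0.04 for SGI-1027 and -1.19 ± 0.04 for both drugs, which left 57.9%, 50.4% and 43.9% of the DMSO mean. HSP90AB1, the constitutive cytosolic HSP90, was at 890, 909 and 924 FPKM with DMSO, 617, 607 and 602 FPKM with everolimus, 552, 551 and 528 FPKM with SGI-1027 and 527, 538 and 531 FPKM with the combination. The SGI-1027 and combination libraries of HSP90AB1 overlapped on this scale and all lay below the everolimus libraries. HSP90AB1 had log2 fold changes of -0.58 ± 0.03, -0.74 ± 0.03 and -0.79 ± 0.03. HSP90AA1 was thus the more reduced of both isoforms in each group, and its FPKM as a percent of that of HSP90AB1 was 60.5% to 64.0% in the DMSO libraries, 52.3% to 54.6% with everolimus, 51.0% to 53.5% with SGI-1027 and 45.8% to 49.6% with both drugs. The DMSO libraries lay above, and the combination libraries below, those of every other group in this ratio.

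HSPA8, the constitutive HSP70 of the cytosol, was at 1213, 1215 and 1225 FPKM with DMSO, 771, 747 and 735 FPKM with everolimus, 764, 770 and 799 FPKM with SGI-1027 and 792, 787 and 814 FPKM with the combination. All treated libraries lay close together, far below the DMSO libraries. Its log2 fold changes were -0.70 ± 0.03, -0.65 ± 0.03 and -0.63 ± 0.03, the lowest value being that with everolimus.

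HSPA1A and HSPA1B, neighbouring genes of the inducible HSP70, encode nearly the same protein. HSPA1B was at 32.5, 30.5 and 29.99 FPKM with DMSO, 22.7, 20.7 and 20.3 FPKM with everolimus, 16.6, 17.9 and 18.6 FPKM with SGI-1027 and 18.7, 19.2 and 19.3 FPKM with the combination. The SGI-1027 and combination libraries were both below the everolimus libraries. In the fit, HSPA1B changed by -0.55 ± 0.05, -0.81 ± 0.05 and -0.72 ± 0.05. HSPA1A had only 363, 192 and 256 counts in the DMSO libraries, 99, 115 and 174 with everolimus, 91, 110 and 106 with SGI-1027 and 137, 106 and 90 with the combination. Its lowest DMSO library and its highest everolimus library lay close to each other, at 4.66 and 4.55 CPM (counts scaled to library size). HSPA1A had log2 fold changes of -1.07 ± 0.24, -1.40 ± 0.24 and -1.29 ± 0.24, the SEs being the widest among the members, and without DMSO replicate 1 they were -0.77, -1.09 and -0.98, so that its values for everolimus and the combination no longer passed the limit of 1 in size. The transcripts of HSPA1A shared 72.6% of their 50-base words with HSPA1B or other genes, and those of HSPA1B shared 73.5%, so the split of reads between them is uncertain. HSPA1A took 4.45% to 10.7% of the counts of the pair. Summed, the pair was at 82.2 to 91.0 CPM with DMSO, 54.5 to 60.1 CPM with everolimus, 44.2 to 50.02 CPM with SGI-1027 and 50.3 to 50.6 CPM with the combination, again with no treated library near the DMSO range.

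**Figure D2:**
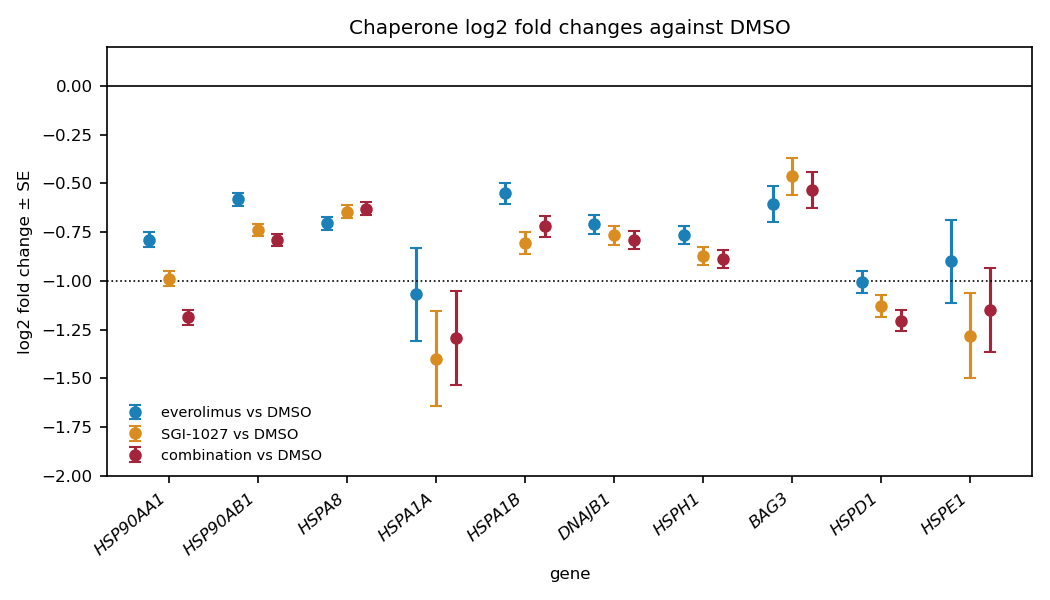
Log2 fold change of each chaperone against DMSO (y axis) for everolimus, SGI-1027 and the combination, with bars of ± SE from the fit on all 12 libraries and a dotted line at -1. All 30 values lie below 0, between -1.40 (HSPA1A with SGI-1027) and -0.46 (BAG3 with SGI-1027), and the bars of HSPA1A and HSPE1 are the widest.

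DNAJB1, the J-domain protein that delivers clients to HSP70 and starts its ATP hydrolysis, was at 43.4, 40.5 and 41.1 FPKM with DMSO, 27.0, 24.4 and 25.3 FPKM with everolimus, 23.5, 24.4 and 25.6 FPKM with SGI-1027 and 25.1, 23.6 and 24.6 FPKM with the combination. The treated groups overlapped one another. Its log2 fold changes were -0.71 ± 0.05, -0.77 ± 0.05 and -0.79 ± 0.05. HSPH1, the HSP110 that exchanges nucleotide on HSP70, was at 27.99, 28.22 and 29.04 FPKM with DMSO, 16.9, 16.7 and 16.8 FPKM with everolimus, 15.4, 16.2 and 15.02 FPKM with SGI-1027 and 16.1, 14.4 and 16.2 FPKM with the combination. The everolimus libraries lay just above those of the other treated groups. HSPH1 had log2 fold changes of -0.76 ± 0.05, -0.87 ± 0.05 and -0.89 ± 0.05.

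BAG3, which binds HSP70 and small heat shock proteins and links them to selective autophagy, was the least reduced member under SGI-1027 and the combination. It was at 35.8, 28.9 and 28.7 FPKM with DMSO, 21.2, 19.7 and 20.7 FPKM with everolimus, 20.6, 20.0 and 27.0 FPKM with SGI-1027 and 21.1, 21.8 and 22.5 FPKM with the combination. DMSO replicate 1 and SGI-1027 replicate 3 were each the high library of their group, and SGI-1027 replicate 3 came close to the lowest DMSO library. In log2 terms the changes were -0.61 ± 0.09, -0.46 ± 0.09 and -0.53 ± 0.09, and without both of these libraries they were -0.50, -0.52 and -0.43.

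HSPD1 (HSP60) and its lid HSPE1 (HSP10) are arranged head to head on chromosome 2 and are transcribed away from a shared promoter region. HSPD1 was at 285, 323 and 322 FPKM with DMSO, 156, 157 and 151 FPKM with everolimus, 151, 145 and 128 FPKM with SGI-1027 and 136, 134 and 140 FPKM with the combination. The treated libraries lay far below DMSO, with log2 fold changes of -1.01 ± 0.06, -1.13 ± 0.06 and -1.20 ± 0.06, values below which lay 119, 91 and 217 of the 12841 tested genes. Apart from HSPA1A and HSPE1, no member had a lower value against DMSO in any group. HSPE1 was at 342, 626 and 656 counts with DMSO, 282, 296 and 285 with everolimus, 274, 251 and 134 with SGI-1027 and 252, 282 and 194 with the combination. DMSO replicate 1 and SGI-1027 replicate 3 were the low libraries of their groups. Log2 fold changes of HSPE1 were -0.90 ± 0.21, -1.28 ± 0.22 and -1.15 ± 0.22, and without both libraries they were -1.12, -1.24 and -1.37. At 557 bases, the length that counts and FPKM imply for HSPE1, only 0.506% of tested genes were shorter, and 27.2% of its 50-base words were shared with 10 other genes, foremost the read-through transcript HSPE1-MOB4 (15.98%). Its FPKM was 4.76% to 9.62% of that of HSPD1 over all libraries, with no ordering of the groups.

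Sequence shared with other genes, mostly processed pseudogenes, also bore on other members. The share of 50-base words found in another gene was 24.8% for HSPD1, 18.8% for HSP90AB1, 17.5% for HSP90AA1, 15.4% for HSPA8 and 2.57% for DNAJB1, whereas HSPH1 and BAG3 shared none. How the authors assigned such reads is not given in the sources used here.

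Whether both drugs together went beyond each drug alone was asked next. Against everolimus, the combination was lower in 5 of the 10 members by adjusted p (HSP90AA1, HSP90AB1, HSPD1, HSPA1B and HSPH1), where 19.2% of tested genes were called lower. The differences were -0.40 ± 0.04 for HSP90AA1, -0.21 ± 0.03 for HSP90AB1, -0.20 ± 0.06 for HSPD1, -0.17 ± 0.06 for HSPA1B and -0.12 ± 0.05 for HSPH1. HSPH1 lost this call under 12 of 22 alternatives, at values of -0.13 to -0.06, among them the replicate block, the filter of 10 counts and both FPKM fits. HSPA1B lost it without everolimus replicate 1 (-0.11), combination replicate 1 (-0.15) or combination replicate 2 (-0.17). The count fell to 3 without everolimus replicate 1 or combination replicate 2. HSPA8 was the only member whose combination libraries all lay above the everolimus libraries, by 0.07 ± 0.03, and it was not called. It was called higher with only the compared groups in the fit (0.08) and without both DMSO replicate 1 and SGI-1027 replicate 3 (0.07). The combination libraries of HSPE1 all lay below the everolimus libraries (-0.25 ± 0.22). HSPE1 was not called, except without both of these libraries (-0.25). Against SGI-1027, HSP90AA1 alone was called lower, by -0.20 ± 0.04, where 10.2% of tested genes were called lower. Without SGI-1027 replicate 3, HSPD1 was called as well, at -0.14. For the other members the 95% interval of the difference between the combination and SGI-1027 included 0. It ran from -0.05 to 0.09 for HSPA8, from -0.13 to 0.08 for DNAJB1 and from -0.12 to 0.09 for HSPH1, but from -0.45 to 0.66 for HSPA1A and from -0.35 to 0.62 for HSPE1, the members with few counts.

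The combination lowered every member by less than the sum of the log2 fold changes of both single drugs. For HSP90AA1 the single-drug values summed to -1.78, which would leave 29.2% of the DMSO level, and 43.9% was measured. For HSPD1 the sum of -2.14 would leave 22.7%, and 43.4% was measured. The interaction, the combination's log2 fold change minus that sum, was above 0 for all 10 members and ranged from 0.53 ± 0.04 for HSP90AB1 and 0.54 ± 0.13 for BAG3 to 1.03 ± 0.31 for HSPE1 and 1.18 ± 0.35 for HSPA1A. By adjusted p, 23.6% of tested genes had an interaction above 0. This contrast assumes that everolimus alone was used at the dose in the combination, which the records leave uncertain.

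**Figure D3:**
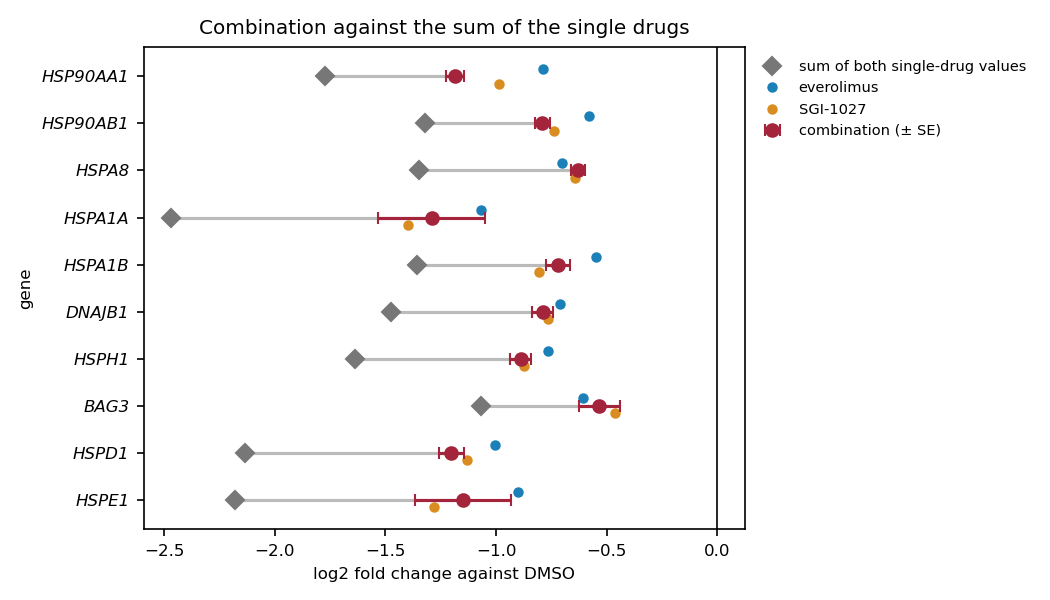
Log2 fold change against DMSO (x axis) of each chaperone for the single drugs and for the combination (± SE), beside the sum of both single-drug values (grey diamonds). For every gene the combination lies near the single drugs and to the right of the diamond, the gap being 0.53 for HSP90AB1 and 1.18 for HSPA1A.

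The rest of the chaperone network was read from 10 lists holding 121 further genes, of which 111 were tested. Among these, 65 fell and 11 rose with everolimus, 70 fell and 12 rose with SGI-1027, and 75 fell and 17 rose with the combination (adjusted p under 0.05). Of all tested genes, 27.2%, 32% and 32.8% rose in these contrasts, and the shares that fell are given above. The median log2 fold change of the 111 genes was -0.32, -0.33 and -0.38. For named genes below, adjusted p values are from edgeR's quasi-likelihood test over all 12841 genes, and no test was made on the lists themselves. The interaction was above 0 for 57 and below 0 for 10 of the 111 genes, against 23.6% and 22.1% of all tested genes. A gene lowered alike in all treated groups has an interaction above 0 by arithmetic, so this count is not separate from the falls above.

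HSP90 co-chaperones were lower in the same groups as the HSP90 genes. Of 19 tested, 17 fell with everolimus, 18 with SGI-1027 and 19 with both drugs, and none rose, with medians of -0.48, -0.45 and -0.52. FKBP4, a peptidyl-prolyl isomerase that rides on HSP90 in steroid receptor complexes, was at 76.0, 76.1 and 75.7 FPKM with DMSO, 35.4, 35.7 and 34.4 FPKM with everolimus, 34.2, 33.2 and 32.6 FPKM with SGI-1027 and 33.7, 34.0 and 34.1 FPKM with the combination. The treated libraries lay in a narrow band far below DMSO, with log2 fold changes of -1.12 ± 0.03, -1.19 ± 0.03 and -1.18 ± 0.03 (adjusted p = 8.32e-14, 8.82e-15 and 4.87e-15). CHORDC1, an HSP90-binding co-chaperone, changed by -0.82, -0.88 and -1.07 (adjusted p = 2.66e-10, 5.37e-11 and 2.82e-12), and STIP1, the adaptor that hands clients from HSP70 to HSP90, by -0.78, -0.83 and -0.96 (adjusted p = 5.65e-12, 1.12e-12 and 6.41e-14). Both were also lower with the combination than with SGI-1027 alone (adjusted p = 0.0172 and 0.00836). For CHORDC1 that call was lost without SGI-1027 replicate 1 (-0.16) and without combination replicate 2 or 3 (-0.17).

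Most genes of the CCT/TRiC chaperonin, which folds actin and tubulin, and of prefoldin, which feeds it, were called lower. Of 15 genes tested, 11 fell with everolimus and 13 with SGI-1027 and with the combination, whereas 2, 1 and 2 rose. CCT5 was at 299 to 314 FPKM with DMSO, 175 to 177 FPKM with everolimus, 159 to 171 FPKM with SGI-1027 and 166 to 168 FPKM with the combination. It changed by -0.81 ± 0.04, -0.88 ± 0.04 and -0.90 ± 0.04 (adjusted p = 5.89e-12, 8.44e-13 and 2.55e-13). The subunit CCT3 changed by -0.75 with the combination (adjusted p = 1.19e-11) and the prefoldin subunit VBP1 by -0.78 (adjusted p = 4.74e-08). The genes that rose with the combination were PFDN5 (0.21), a further prefoldin subunit, and CCT6B (1.03), a testis-enriched chaperonin subunit, both named after their values were seen.

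Many mitochondrial chaperones and proteases other than HSPD1 and HSPE1 were lower as well. Of 16 tested, 11 fell with everolimus, 12 with SGI-1027 and 12 with both drugs, and 1 rose with the combination. TRAP1, the mitochondrial HSP90, changed by -0.64, -0.75 and -0.68 (adjusted p = 2.92e-09, 2.23e-10 and 5.51e-10). HSPA9, the mitochondrial HSP70, was at 91.0, 97.3 and 98.5 FPKM with DMSO, 57.8, 59.2 and 60.4 FPKM with everolimus, 63.9, 63.0 and 59.5 FPKM with SGI-1027 and 71.5, 75.8 and 73.2 FPKM with the combination. Its combination libraries thus lay between DMSO and both single drugs. HSPA9 changed by -0.70, -0.62 and -0.40, and the combination was higher than everolimus by 0.30 (adjusted p = 1.34e-05) and than SGI-1027 by 0.22 (adjusted p = 0.000795). CLPB, a disaggregase of the intermembrane space, changed by -0.97 with the combination (adjusted p = 1.31e-09) and DNAJA3, the matrix J protein, by -0.61 (adjusted p = 1.63e-09).

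**Figure D4:**
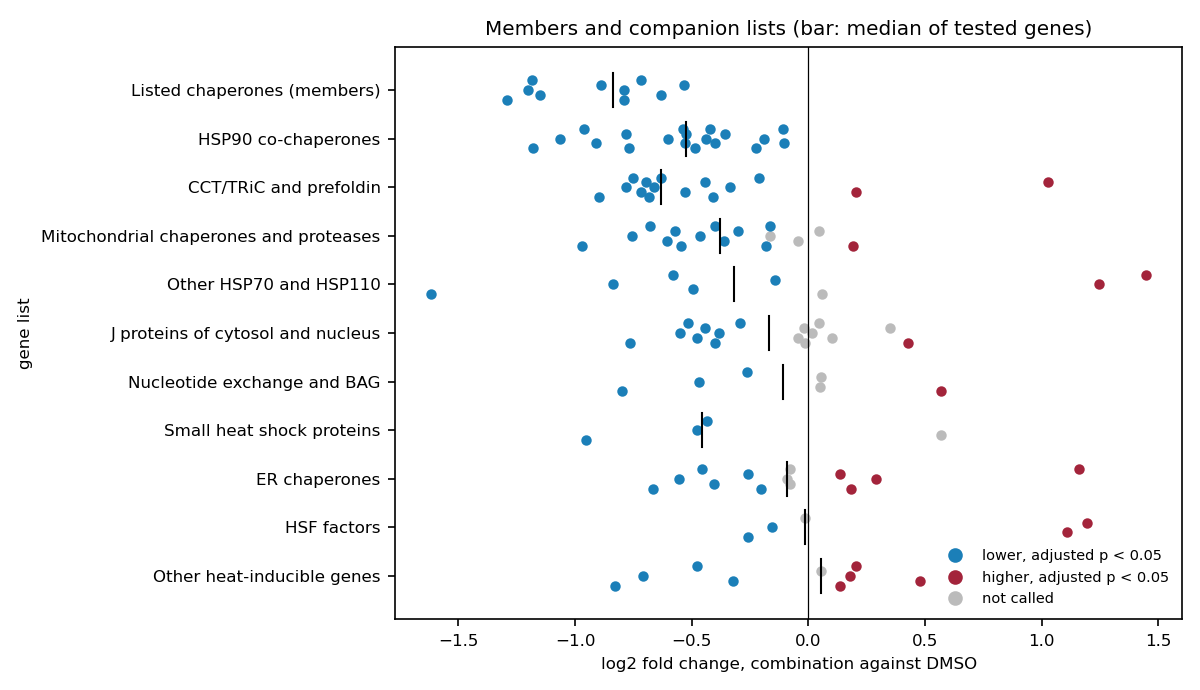
Log2 fold change with the combination against DMSO (x axis) of the 10 chaperones and of the tested genes of 10 companion lists (rows). Each point is a gene, coloured by its call at an adjusted p under 0.05, and the bar is the median of the list. HSP90 co-chaperones lie wholly to the left of 0 (19 of 19 called lower), whereas endoplasmic reticulum chaperones spread to both sides (6 lower, 4 higher).

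Other HSP70 relatives went in both directions. Among the 8 tested, 4 fell and 1 rose with everolimus, 4 fell and 2 rose with SGI-1027, and 5 fell and 2 rose with the combination. The highest log2 fold changes of this list were 1.36, 0.985 and 1.45 in that order, none of them from a gene named here. HSPA4L, a relative of HSPH1 in the HSP110 family, was at 3.47, 3.43 and 3.70 FPKM with DMSO, 1.83, 1.87 and 1.72 FPKM with everolimus, 1.44, 1.62 and 1.35 FPKM with SGI-1027 and 1.088, 1.209 and 1.200 FPKM with the combination. No libraries of different groups overlapped, and the log2 fold changes were -0.97 ± 0.07, -1.26 ± 0.07 and -1.62 ± 0.07 (adjusted p = 1.84e-09, 4.01e-11 and 1.04e-12). HSPA4, also of this family, changed by -0.44, -0.45 and -0.49, HSPA14, a ribosome-associated HSP70, by -0.82, -0.96 and -0.84, and HSPA2 by -0.14, -0.34 and -0.58, of which the first did not pass the test (adjusted p = 0.195). HSPA6, a strictly stress-induced HSP70, had only 12 to 22 counts with DMSO, 6 to 12 with everolimus, 10 to 24 with SGI-1027 and 32 to 46 with both drugs. Among the groups, HSPA6 was highest in the combination, by 1.24 ± 0.35 over DMSO (adjusted p = 0.00416), at a level of at most 0.496 FPKM. HSPA6 was named after its values were seen.

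Of 16 J proteins of the cytosol and nucleus, 9 fell and 1 rose with either single drug and 8 fell and 1 rose with the combination. DNAJA1, which works with HSPA8, changed by -0.36, -0.33 and -0.38 (adjusted p = 4.00e-06, 8.97e-06 and 1.27e-06), less than its relative DNAJB1. DNAJB5 changed by -0.76, DNAJC2, the J protein of the ribosome, by -0.55 and DNAJC8 by -0.52 with the combination. Among 6 genes of nucleotide exchange and BAG proteins, BAG2 changed by -0.80 and HSPBP1 by -0.47 with the combination, whereas BAG1 rose by 0.57 (adjusted p = 5.46e-06). Against DMSO, 2 of these 6 fell and 2 rose with everolimus, 2 fell and 1 rose with SGI-1027, and 3 fell and 1 rose with the combination. In so short a list the shares that fell, 33.3%, 33.3% and 50%, were not far from the 29.2%, 30.6% and 33.4% of all tested genes.

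Of 10 small heat shock proteins, 4 passed the filter on low counts, and 2, 2 and 3 of them fell. With SGI-1027, 1 gene not named here rose, by 1.33, and none rose with everolimus or the combination. HSPB1 (HSP27), which holds unfolding proteins without ATP, was at 1493, 1213 and 1166 FPKM with DMSO, 907, 901 and 918 FPKM with everolimus, 854, 874 and 1054 FPKM with SGI-1027 and 689, 683 and 651 FPKM with the combination. DMSO replicate 1 and SGI-1027 replicate 3 were its high libraries, as they were for BAG3. HSPB1 changed by -0.51 ± 0.08, -0.47 ± 0.08 and -0.96 ± 0.08 (adjusted p = 1.73e-05, 3.03e-05 and 4.15e-09), and its interaction of 0.03 did not pass the test (adjusted p = 0.849). HSPB8, the small heat shock protein that partners BAG3, changed by -0.48 with the combination (adjusted p = 3.22e-07) and by 0.11 and 0.00 with the single drugs, which did not pass the test. HSPB11 changed by -0.43 with the combination (adjusted p = 3.63e-05).

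Endoplasmic reticulum chaperones gave a mixed picture, with 5 of 13 lower and 3 higher with everolimus, 5 lower and 4 higher with SGI-1027, and 6 lower and 4 higher with the combination. The shares lower, 38%, 38% and 46%, were not far above the 29.2%, 30.6% and 33.4% of all tested genes. HSPA5 (BiP), the HSP70 of that compartment, changed by -0.72, -0.57 and -0.67 (adjusted p = 1.52e-11, 1.06e-10 and 8.63e-12). HSP90B1, its HSP90, rose by 0.18 with everolimus and 0.11 with SGI-1027 (adjusted p = 0.000419 and 0.0131) and was at -0.08 with the combination (adjusted p = 0.0787). Its rise with SGI-1027 was lost without DMSO replicate 1 and without SGI-1027 replicate 1, and its value with the combination passed the test without DMSO replicate 1 (-0.10). SDF2L1 changed by -0.55 and DNAJB11 by -0.46 with the combination, whereas DNAJB9, named after its values were seen, rose by 1.16 (adjusted p = 1.60e-07).

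The heat shock factors and their binding partners did not move in 1 direction. Of 5 tested, 1 fell and 2 rose with everolimus, and 2 fell and 2 rose with SGI-1027 and with the combination. HSF1 was at 69.9, 61.8 and 58.7 FPKM with DMSO, 50.7, 51.0 and 51.3 FPKM with everolimus, 52.5, 52.3 and 58.3 FPKM with SGI-1027 and 58.9, 57.9 and 56.3 FPKM with the combination. On this scale the highest combination library just reached the DMSO range, and DMSO replicate 1 was high. In CPM the highest combination library of HSF1 (131.9) lay just below its lowest DMSO library (134.0). Its log2 fold changes were -0.32 ± 0.05, -0.22 ± 0.05 and -0.16 ± 0.05 (adjusted p = 7.24e-05, 0.00181 and 0.0169), and with the combination the call was lost under 5 alternatives, without DMSO replicate 1 (-0.09), with upper-quartile scaling (-0.10), with both FPKM fits (-0.13 in each) and without combination replicate 3 (-0.14). HSF2 was at 3.56 to 4.02 FPKM in the DMSO and combination libraries and did not pass the test in any contrast (adjusted p = 0.86, 0.75 and 0.88 against DMSO). HSBP1, which binds HSF1 and restrains it, changed by -0.26 with the combination (adjusted p = 0.000181). HSF4 and HSF2BP, both named after their values were seen, were the genes that rose. HSF4 had 157 to 189 counts with DMSO and 358 to 439 with the combination and rose by 0.82, 1.16 and 1.20 (adjusted p = 5.88e-06, 4.70e-08 and 2.31e-08). HSF2BP, which binds HSF2, had 62 to 72 counts with DMSO and 138 to 151 with the combination and rose by 0.76, 0.99 and 1.11 (adjusted p = 0.000582, 3.05e-05 and 6.22e-06). These are transcript levels, and HSF1 is regulated mainly as a protein.

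Of 9 further heat-inducible genes, 3 fell with everolimus, 3 with SGI-1027 and 4 with both drugs, and 4 rose with the combination, where none was called higher with a single drug. The shares that fell, 33.3%, 33.3% and 44.4%, were not far from the 29.2%, 30.6% and 33.4% of all tested genes. With the combination 44.4% rose, against 32.8% of all tested genes, and the median of the list was 0.05. SERPINH1 (HSP47), the collagen chaperone, changed by -0.45, -0.44 and -0.83 (adjusted p = 4.83e-09, 3.70e-09 and 4.32e-13). MRPL18, a mitochondrial ribosomal protein, changed by -0.48 with the combination, whereas SLC5A3, the myo-inositol transporter, rose by 0.48 (adjusted p = 1.84e-05) and was at -0.10 and 0.06 with the single drugs (adjusted p = 0.303 and 0.516).

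The members also varied among replicates of the same group, and not together. The SD of log2 CPM within groups was 0.03 for HSP90AB1 and for HSPA8, 0.05 to 0.08 for HSP90AA1, HSPH1, DNAJB1, HSPA1B and HSPD1, 0.15 for BAG3, 0.34 for HSPA1A and 0.37 for HSPE1. Of tested genes, 99.5% varied less than HSPE1 and 99.3% less than HSPA1A. Over the deviations of the 12 libraries from their group means, HSPE1 moved with HSPD1 (r = 0.83) and HSP90AB1 (r = 0.85) and opposite to BAG3 (r = -0.93). In DMSO replicate 1 HSPE1 lay 0.52 below its group mean and BAG3 0.19 above it, and in SGI-1027 replicate 3 HSPE1 lay 0.60 below and BAG3 0.28 above. Without both libraries the value for HSPE1 with HSPD1 became -0.62, with HSP90AB1 0.38 and with BAG3 -0.28. By contrast HSPA8 with HSPA1B had r = 0.69 over 12 libraries and 0.81 over 10, and HSPA8 with DNAJB1 had 0.68 and 0.74. The points share library and depth, and these values are descriptions. In the same libraries the median deviation of the 1285 shortest tested genes was -0.02 (DMSO replicate 1) and -0.05 (SGI-1027 replicate 3), and its part in the level of the short HSPE1 transcript was not tested.

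**Figure D5:**
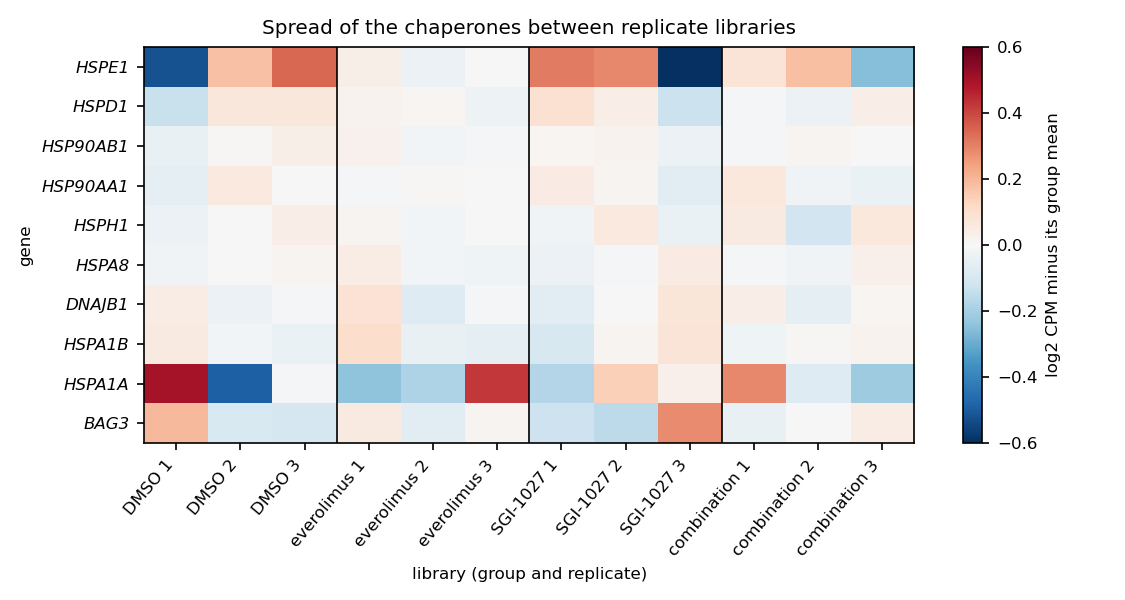
Deviation of each chaperone's log2 CPM from its group mean (colour scale from -0.6 to 0.6) in the 12 libraries (columns, grouped by treatment). HSPE1 is low and BAG3 high in DMSO replicate 1 and SGI-1027 replicate 3, whereas HSP90AB1 and HSPA8 stay near 0 in every library.

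The genes whose log2 CPM over the 12 libraries was most like that of 4 members, among 9095 genes with at least 10 CPM, were picked by Pearson correlation. For HSP90AA1 they included PSME4 and PRKAR2A (r = 0.996 and 0.996). For HSPA1B they were TMX2, PKP4 and KCMF1 (r = 0.987, 0.987 and 0.986), and for DNAJB1 they were FBXO5, DFFA and THOP1 (r = 0.995, 0.992 and 0.990). HSPD1 was most like RCC1, EIF3B and CCT5 (r = 0.995, 0.995 and 0.995), the last of which is the chaperonin subunit described above. These values include the difference between DMSO and the treated groups. Over deviations from the group means, r for the genes named here was lower, from 0.58 for PRKAR2A with HSP90AA1 to 0.93 for FBXO5 with DNAJB1. With the combination the genes named here changed by -0.95 to -0.29, less than the member they resembled.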

How the data were processed

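For 12 libraries of 786-O cells the authors made a table of raw counts, as whole numbers for each gene symbol and without scaling, and a table of FPKM values for the same libraries. The aligner, the counting program and its use of strand, and the annotation are not given in the sources used here. The submitters' processing notes name the mouse builds GRCm38 and mm10, although the cells and gene symbols are human. The extraction and library kits also differ between the sample records (RNeasy, SMARTER) and the paper (TRIzol, TruSeq).

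Counts were fitted with edgeR 4.0.16 in R 4.3.3 (filterByExpr by group, TMM factors, quasi-likelihood test, prior count 0.125). All 12 libraries entered the fit, with group means only, in 6 contrasts, and p-values were adjusted by Benjamini-Hochberg over 12841 of 17085 genes. Normalized CPM used TMM-scaled library sizes. Levels between genes were compared in FPKM only. An error is the SD of 3 libraries or the SE of a log2 fold change, intervals are 95%, and depth was 37046231 to 41516976 counts per library. DESeq2 1.42.0, limma 3.58.1 on log2(FPKM + 1) and log2(FPKM + 0.1), upper-quartile factors, other filters, a replicate block, fits of only the groups compared and leaving out libraries were alternatives. On data simulated for the combination against DMSO (12765 genes), edgeR found 189 of 200 changed genes with 9 false calls, and DESeq2 185 with 17. All simulated log2 changes were 1 or more in size, so the recovery of smaller ones was not tested. In the measured libraries, 4283 genes were called lower and 4213 higher in this contrast. The share of false calls among so many called genes was not tested.

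The members and the companion lists were chosen with earlier results of these data known. Named companions were 10 genes always named (HSF1, HSF2, HSPA9, TRAP1, HSPA4, HSPB1, DNAJA1, STIP1, HSPA5, HSP90B1) and the 3 genes of each list with the largest change in the combination among those past the adjusted threshold with at least 10 CPM. HSF5, UNC45B and the red cell marker HBB were not analysed here. A gene among those most like HSP90AA1 is not reported here.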

Additional observations from a re-analysis of the deposited data

Results flagged for a closer look

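The effect of SGI-1027 differed between cells without and with everolimus, as tested by the interaction contrast, in 24 of the 34 companion genes named by rule, above 0 in 22 and below 0 in 2. Of all tested genes, 23.6% were called above 0 and 22.1% below 0. Most of the 34 were picked by their change in the combination against DMSO, and those values also enter this contrast. A gene lowered alike in all treated groups has an interaction above 0 by arithmetic. These counts are therefore descriptions, and all tested genes are not a like background for them. The values are log2 differences between the combination and the sum of both single drugs. Among the 10 chaperones, given as descriptions, they were 0.589 for HSP90AA1, 0.53 for HSP90AB1, 0.719 for HSPA8, 1.18 for HSPA1A and 0.637 for HSPA1B. They were 0.686 for DNAJB1, 0.748 for HSPH1, 0.536 for BAG3, 0.933 for HSPD1 and 1.03 for HSPE1.

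Among companion genes with an adjusted p under 0.05 for this contrast, the co-chaperones FKBP4, CHORDC1 and STIP1 were at 1.12, 0.634 and 0.644, and the chaperonin subunits CCT5 and CCT3 at 0.79 and 0.467. The mitochondrial genes HSPA9, TRAP1, CLPB and DNAJA3 were at 0.922, 0.71, 0.53 and 0.716. HSPA4, HSPA4L and HSPA14 of the HSP70 group were at 0.399, 0.614 and 0.944, DNAJA1 and DNAJC8 at 0.311 and 0.434, and BAG2 and HSPBP1 at 0.749 and 0.317. HSPA5, SDF2L1 and DNAJB11 of the endoplasmic reticulum were at 0.625, 0.936 and 0.433, HSF1 at 0.383, SLC5A3 at 0.515 and MRPL18 at 0.6. HSP90B1 and HSPB8 had the opposite sign, at -0.374 and -0.586. The uncertain dose of everolimus alone bears on each of these values.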

How the results depend on the processing

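Every member stayed called lower against DMSO, and above 0 in the interaction, under each alternative that gave a value, and no called value of a member or named companion changed sign. Of 371 recomputed counts, 356 stayed within 1.5 times the value reported. The members past the study cut-off with everolimus (2 in the report) were 0 with upper-quartile factors and with limma on log2(FPKM + 1) or log2(FPKM + 0.1), and 1 with at least 10 counts in every library, with only the groups compared in the fit and with HSPA1A and HSPA1B summed, and 1 to 2 when a library was left out. HSPD1 lay at -1.01 there, next to the limit. Members lower in the combination than with everolimus (5) were 3 to 5 when a library was left out, and 6 without both DMSO replicate 1 and SGI-1027 replicate 3, an alternative chosen after seeing the data. Members lower than with SGI-1027 (1) were 1 to 2, and 2 without both of these libraries. Of 1304 recomputed member values, 15 lost a call and 5 gained one, all between the combination and a single drug. HSPH1 against everolimus lost its call under 12 alternatives. Same-numbered libraries did not deviate together (r from -0.30 to 0.07 over 18 pairs, none over 0.1, and 2 of 12 libraries closest to their own number), so the numbers were not taken as pairs. With the replicate block, 10 members were lower in each group, 4 were lower in the combination than with everolimus, and 74 companions fell and 18 rose with the combination. The interaction could not be fitted with only the groups of a contrast. HSPA1A and HSPE1 had 90 to 656 counts per library and the widest spread within groups among the members (SD of log2 CPM 0.34 and 0.37). Whether depth set that spread was not tested.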
